A study of Homo sapiens with 6 samples.

Results

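The enzymes of glycolysis and genes that human cells switch on when oxygen is scarce were followed in HEK-293 lines that overexpressed circANRIL, a circular form of the non-coding RNA ANRIL. The set was chosen by name, with earlier results of these data known. It held 39 genes, of which 37 were analysed, out of 20044 genes with a named probe, and 2 were not analysed here. These 37 genes comprised 15 glycolysis enzymes, 7 genes of glucose transport and flux control, 13 other hypoxia-inducible genes and the 2 alpha subunits of the hypoxia-inducible factors, HIF1A and EPAS1. They were represented by 65 of 47315 probes. HEK-293 is an established line of human embryonic kidney cells. The tested arrays were 3 of HEK293 cells with stable circANRIL overexpression, and they were set against 3 arrays of HEK293 cells stably carrying the vector pBI-CMV2 alone. The methods describe pBI-CMV2 as a bicistronic vector that also expresses a green fluorescent protein. It was transfected together with a neomycin resistance vector, and cells of both groups were selected with G418, so both carry these insertions. No passage, culture time or oxygen tension is given in the labels. Per the methods at least 3 lines were generated for each construct, and the arrays were run on cell lines with 3 per group. The labels do not name the line or culture behind an array, so the p-values measure only the spread between these arrays, which may be technical. The overexpression of circANRIL itself was not measured on the arrays.

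Glycolysis splits glucose into pyruvate in the cytosol, and lactate dehydrogenase can then turn pyruvate into lactate, which lets the pathway run without oxygen. In well-oxygenated cells prolyl hydroxylases mark the alpha subunits of the hypoxia-inducible factors for destruction through the VHL ubiquitin ligase. When oxygen is low the subunits persist, pair with ARNT and bind short core sequences near genes for glucose uptake, glycolysis, mitophagy, collagen maturation and blood vessel growth. Many of these genes also answer to other signals, among them amino acid shortage, nutrient stress and growth factors.

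The core sequences that this factor recognises, ACGTG and GCGTG, were searched on both strands in promoters taken from RefSeq (GRCh38.p14). They run from 250 bases before to 50 bases after a single start position for each gene. For GPI, KDM3A and PFKFB4, among others, this position lay inside the gene's span and not at its outer end. Such a promoter of 300 bases was at hand for 32 of the 37 genes. It was missing for NDRG1, VEGFA, BNIP3L, SLC2A3 and PFKFB2, none of them an enzyme. Either core was present in 24 of these 32 promoters (75%), in 63.4% of the 9745 promoters of measured genes and in 48.4% of all 27305 promoters of this length. Among the enzymes 10 of 15 promoters held a core, and among the transport, flux and other hypoxia-inducible genes 12 of 15 did. The only core of SLC2A1 lay after its start position. The E-box CACGTG, which contains ACGTG on both strands and is also read by MYC and by the carbohydrate-response factors, was found in 15.6% of the members' promoters and in 10.4% of those of measured genes. A match is a run of letters and was not shown to be bound in these cells. Windows of 30 bases from 7 of these promoters are shown, because they belong to genes on both sides of the contrast described here. The matches to either core or its reverse complement are in capitals.
HK2, higher in circANRIL lines, chr2:74834063-74834092, plus strand: agccaatggGCGTGcgCACGTcactgatcc
BNIP3, higher in circANRIL lines, chr10:131982032-131982061, minus strand: gccgCACGTGccaCACGCacccCACGCccc
P4HA1, higher in circANRIL lines, chr10:73096936-73096965, minus strand: gtgtgatcgagctCACGTagcgagggctgc
LDHA, did not pass the test, chr11:18394470-18394499, plus strand: gactcaCACGTGggttcccgCACGTccgcc
PGK1, did not pass the test, chrX:78104043-78104072, plus strand: cggACGTGacaaacggaagccgCACGTctc
ALDOA, did not pass the test, chr16:30064088-30064117, plus strand: cccttcccctccaCACGTcaacgattctat
ENO1, did not pass the test, chr1:8878742-8878771, minus strand: cggagctgaggggGCGTGccccggaggcgg
Every window was picked because it held a core, and from both sides of the contrast, so the windows cannot show how cores relate to the test.

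All values are normalized log2 levels of single probes, so levels of different genes are not compared. Probes detected on at least 3 of the 6 arrays were tested, which left 21191 probes and 12134 genes with 1 symbol, each gene being represented by its brightest tested probe. Of the 65 probes of the set 54 were tested, and every one of the 37 genes kept at least 1 probe. On the arrays 43.4% to 46.8% of the probes were detected, and the lowest Pearson's r of 2 arrays over the tested probes, which are no replicates, was 0.980 inside a group and 0.946 from group to group. Of 8 markers of HEK-293 cells 5 were tested, among them the intermediate filament gene VIM, while the kidney factor PAX2 was detected on none of the arrays. VIM did not pass the test at a log2 fold change of 0.14. Of the other tested markers the neurofilament gene NEFM was lower at −5.36, and KRT8 at 2.30 and NEFL at 1.08 were higher. INA was detected on 1 of 3 vector control arrays, so it entered the test only through the circANRIL group, in which it was high. Its log2 fold change was 3.75, given as a description. The leukocyte marker PTPRC was also at background, and none of the 3 endothelial markers was tested. Of 4 fibroblast markers the collagen genes COL1A1 and COL3A1 were tested. COL1A1 read 4.97, 4.93 and 4.69 on the circANRIL arrays, against 5.23, 5.50 and 5.42 on the vector control arrays. It was lower in circANRIL lines at adjusted p = 0.048 by limma. COL3A1 read 4.79, 4.49 and 4.36, against 5.37, 6.80 and 6.48. Only 1 of 3 circANRIL arrays detected COL3A1, so it entered the test only through the vector control group, in which it was high. It was at least 2.83-fold lower in circANRIL lines, given as a description. The part of these markers in the differences described here was not tested. The number of arrays limits the precision, and the smallest p that an exact permutation of 3 and 3 arrays allows is 0.1. Because RNA of whole cultures was hybridised, more RNA per cell and a larger share of expressing cells cannot be told apart.

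NDRG1, BNIP3, SLC2A1, P4HA1 and HK2 were higher in circANRIL lines, and HK2 was the single glycolysis enzyme among them. None of the 37 genes was lower at an adjusted p under 0.05 by limma, whereas 15 were higher and 2 lower at an unadjusted p under 0.05. These 17 of 37 compare with 35.4% of all measured genes past that unadjusted limit, and the methods' t-test called 0 lower after adjustment. That t-test is the one the methods name for comparing groups, whereas they selected transcripts of these arrays by fold change. The 5 of 37 genes that were higher (13.5%) lie near the 11.4% of all measured genes that were higher, so the count does not set the list apart, and 9.26% of all genes were lower. By probe 6 of the 54 tested probes of the set were higher, against 9.27% of all tested probes. The median log2 fold change, circANRIL over vector control, was 0.42 for the 20 transport, flux and other hypoxia-inducible genes, 0.09 for the 15 enzymes and −0.02 for all measured genes. Of those 20 genes 19 had a positive log2 fold change, against 10 of 15 enzymes and 48.2% of all genes. Because the set was chosen with earlier results known, these medians and signs are a description only. At 8 of the 37 genes every circANRIL array lay above every vector control array, and at 2 genes below, where 19.2% and 20.0% of all genes did so. The count of 5 became 3 without circANRIL replicate 2 or without circANRIL replicate 3, 9 without vector control replicate 1 and 1 by the methods' t-test.

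**Figure D1:**
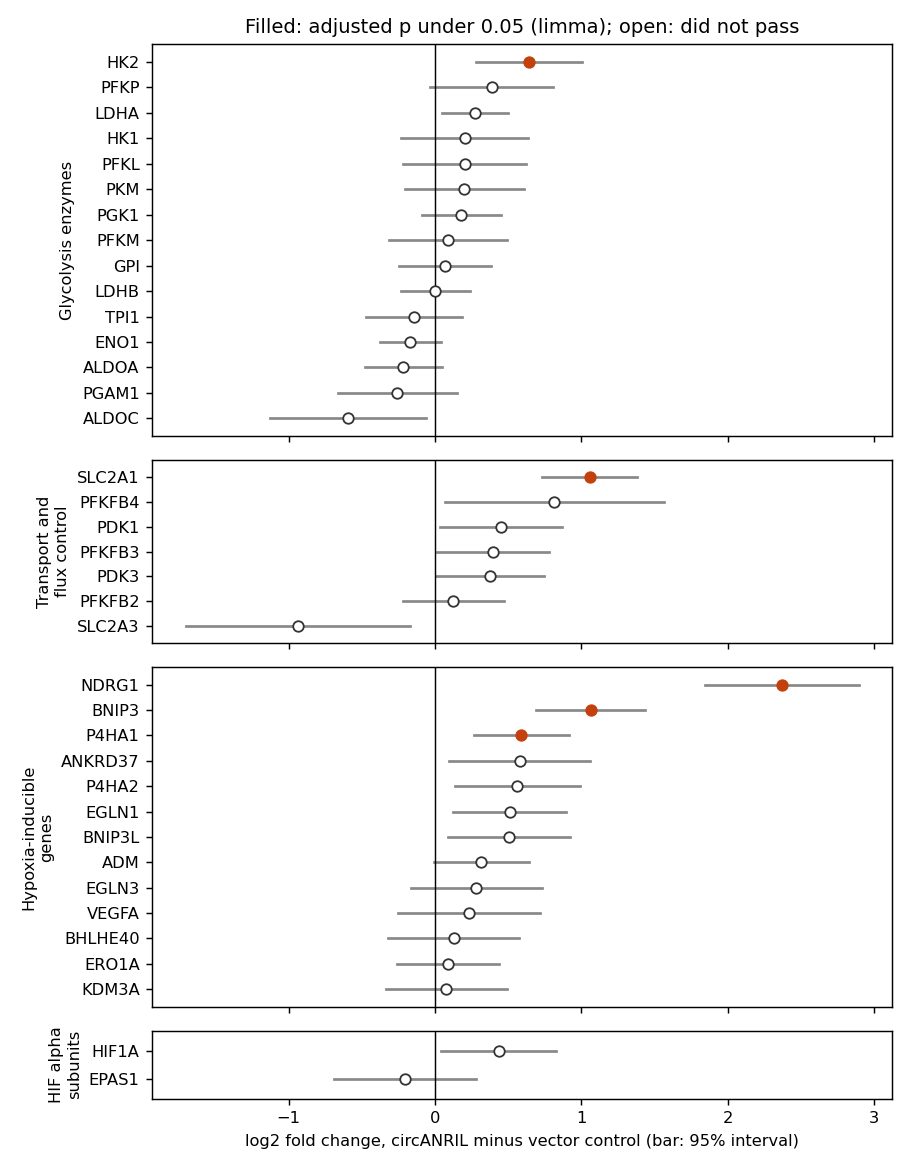
The log2 fold change of each of the 37 genes, circANRIL minus vector control, is plotted with its 95% interval from limma in panels for the enzymes, the transport and flux genes, the other hypoxia-inducible genes and the HIF alpha subunits. Filled points had an adjusted p under 0.05, and the 5 filled points all lie above 0, with 1 of them among the 15 enzymes.

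Glucose enters most cells through facilitative transporters, of which GLUT1, encoded by SLC2A1, is the common form in proliferating cells. SLC2A1 stood at 9.33, 9.39 and 9.51 on the circANRIL arrays, against 8.35, 8.44 and 8.26 on the vector control arrays. The groups lay apart by more than their own spread, by 1.06 on the log2 scale (standard error 0.15, adjusted p = 0.000185 by limma), and of the 5 genes SLC2A1 was the only one that also passed the methods' t-test after adjustment. SLC2A3, which encodes the high-affinity transporter GLUT3, gave 6.21, 6.73 and 5.91 on the circANRIL arrays and 6.70, 8.39 and 6.56 on the vector control arrays. Vector control replicate 2 stood far above the other 5 arrays and the groups overlapped. SLC2A3 differed by −0.94 on the log2 scale (standard error 0.36, adjusted p = 0.0854 by limma). It shrank to −0.35 (adjusted p = 0.381) without vector control replicate 2, and became −1.19 (adjusted p = 0.0477) without vector control replicate 1 and −1.25 (adjusted p = 0.0224) without vector control replicate 3. With median scaling, or with the replicate number as a block, SLC2A3 was also called lower.

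Hexokinase, which traps glucose in the cell as glucose-6-phosphate, is the entry point of the pathway, and HK2 is its inducible form. HK2 reached 8.97, 9.33 and 9.18 on the circANRIL arrays, against 8.27, 8.71 and 8.56 on the vector control arrays. All circANRIL arrays were above all vector control arrays, with a difference of 0.65 on the log2 scale (standard error 0.17, adjusted p = 0.0158 by limma). The second tested probe of HK2 gave 8.62, 8.78 and 9.51 on the circANRIL arrays, against 7.81, 8.15 and 7.89 on the vector control arrays. It also passed, at 1.02 (standard error 0.21, adjusted p = 0.00356). By the brightest probe the HK2 call was lost without circANRIL replicate 2 (0.56, adjusted p = 0.0997), circANRIL replicate 3 (0.63, adjusted p = 0.0563) or vector control replicate 1 (0.52, adjusted p = 0.0556). HK1, the form most tissues use constantly, read 10.83, 10.97 and 10.92 on the circANRIL arrays and 11.31, 10.16 and 10.64 on the vector control arrays. Its vector control arrays spread on both sides of the circANRIL arrays, and the log2 fold change was 0.20 (adjusted p = 0.536). It became 0.50 (adjusted p = 0.0435) without vector control replicate 1 and −0.07 (adjusted p = 0.828) without vector control replicate 2, and a dim second probe of HK1 gave −0.39 (adjusted p = 0.0944).

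Although enolase ENO2, outside the set, was higher as given below, none of the set's enzymes below hexokinase passed the test. Their log2 fold changes ran from −0.60 for ALDOC, a brain-enriched aldolase, to 0.39 for PFKP, the platelet form of phosphofructokinase. The enzymes whose probes gave the brightest signals were enolase ENO1, lactate dehydrogenases LDHA and LDHB, and aldolase ALDOA. ENO1, which makes phosphoenolpyruvate, read 12.94, 12.86 and 12.98 on the circANRIL arrays and 13.08, 13.02 and 13.18 on the vector control arrays. ALDOA, which cleaves fructose-1,6-bisphosphate, read 11.03, 10.98 and 10.92 on the circANRIL arrays and 11.21, 11.07 and 11.30 on the vector control arrays. In both genes every circANRIL array was the lower, but the log2 fold changes of −0.17 for ENO1 (adjusted p = 0.263) and −0.22 for ALDOA (adjusted p = 0.243) did not pass limma's test. LDHA, which favours the step to lactate and is a textbook hypoxia target, showed the opposite order, with 12.86, 13.08 and 12.86 on the circANRIL arrays and 12.60, 12.66 and 12.72 on the vector control arrays. Its value of 0.27 on the log2 scale (standard error 0.10, adjusted p = 0.0853 by limma) lay just outside the threshold, and its other tested probes gave 0.12 and 0.27. LDHB, which favours the return to pyruvate, read 12.44, 12.32 and 12.43 on the circANRIL arrays and 12.55, 12.24 and 12.38 on the vector control arrays. The circANRIL values of LDHB fell within those of the vector control, and the log2 fold change was 0.00 (standard error 0.11, adjusted p = 0.994).

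The remaining enzymes did not pass either. GPI, which isomerises glucose-6-phosphate, had a log2 fold change of 0.07, and the phosphofructokinases PFKL and PFKM had 0.20 and 0.09. Triose-phosphate isomerase TPI1 was at −0.14 and the mutase PGAM1 at −0.26. The ATP-yielding kinases PGK1 and PKM were at 0.18 and 0.20. By value 11 of the 15 enzymes lay within 1.2-fold of the vector control, and for 13 the 95% interval lay within 2-fold. Without HK2 the intervals reached from −1.13 to 0.81 on the log2 scale, so changes of that size in single enzymes were not excluded by these arrays. ALDOC, with 7.26, 7.34 and 7.73 on the circANRIL arrays and 8.59, 8.15 and 7.39 on the vector control arrays, had groups that overlapped through vector control replicate 3. Its log2 fold change of −0.60 (adjusted p = 0.113) became −0.92 (adjusted p = 0.00762) without that array and −0.32 (adjusted p = 0.395) without vector control replicate 1. GAPDH, the glycolytic enzyme often used as a reference gene, was not in the set and is named outside the rule for gene names. By its brightest probe it was at −0.08 on the log2 scale (adjusted p = 0.785).

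**Figure D2:**
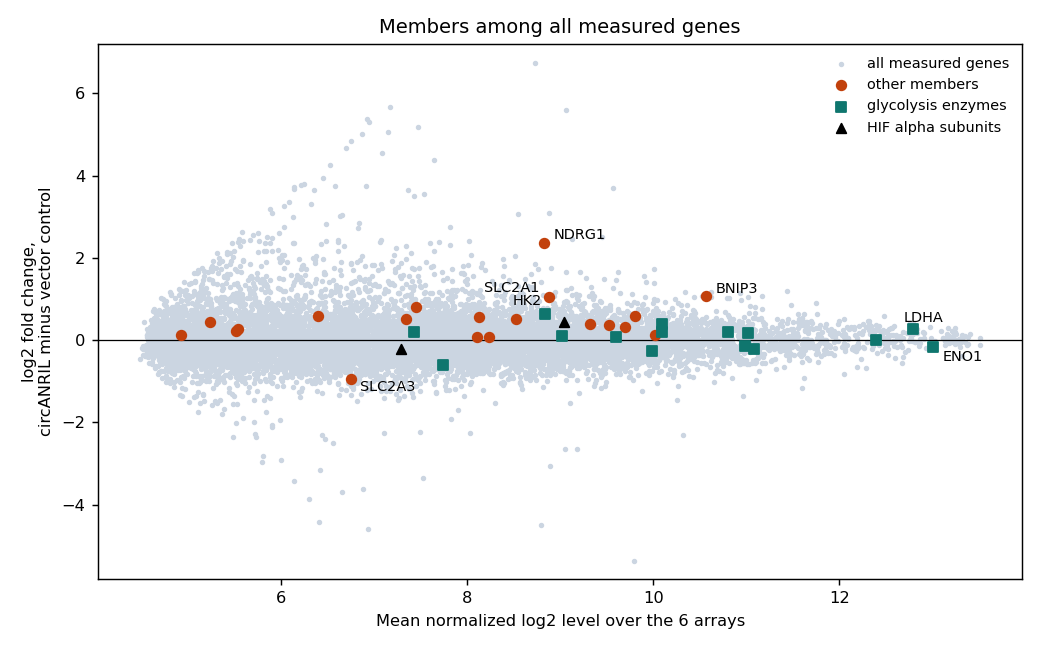
Each grey point is 1 of 12134 measured genes, plotted by its mean normalized log2 level over the 6 arrays and its log2 fold change, circANRIL minus vector control, with the enzymes and the other members in colour. The enzymes lie close to 0 with a median of 0.09, while most other members lie above 0 with a median of 0.42.

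Flux into and out of glycolysis is set by regulatory kinases, and none of the kinase genes in the set passed the test. PFKFB3 and PFKFB4 make fructose-2,6-bisphosphate, the main activator of phosphofructokinase. PFKFB4 read 7.48, 7.99 and 8.10 on the circANRIL arrays and 7.81, 7.44 and 5.87 on the vector control arrays. Vector control replicate 3 stood far below the other 5 arrays, and the log2 fold change of 0.81 had a standard error of 0.35 (adjusted p = 0.123 by limma). It was 0.23 (adjusted p = 0.545) without vector control replicate 3 and 1.20 (adjusted p = 0.0259) without vector control replicate 1. PFKFB3 was at 0.40 on the log2 scale (adjusted p = 0.14), which was 0.60 (adjusted p = 0.0312) without circANRIL replicate 1 and 0.25 (adjusted p = 0.439) without circANRIL replicate 3. A dimmer probe of PFKFB3 gave −0.37. PFKFB2, the heart-enriched form, was at 0.12 (adjusted p = 0.649). The pyruvate dehydrogenase kinases PDK1 and PDK3, which keep pyruvate out of the mitochondrial citric acid cycle, were at 0.45 (adjusted p = 0.126) and 0.37 (adjusted p = 0.153). The tested probes of PFKFB2 and PDK1 were dim, at 4.771 to 5.162 and 4.821 to 5.729 over the arrays. The lowest detected level of an array was 4.601 to 4.687, so these probes limit what could be seen.

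Among the 13 other hypoxia-inducible genes 3 were higher, all 13 had a positive log2 fold change, and 5 had circANRIL arrays that all lay above the vector control arrays. Over all measured genes 11.4% were higher, 48.2% had a positive value and 19.2% lay above without overlap. NDRG1, a differentiation-linked gene induced by oxygen shortage, iron depletion and other stresses, read 9.74, 10.07 and 10.22 on the circANRIL arrays and 6.89, 7.99 and 8.04 on the vector control arrays. The groups lay far apart, at a log2 fold change of 2.37 with a standard error of 0.25 (adjusted p = 6e-06 by limma), which is 5.17-fold and the largest in the set. It missed the threshold in the methods' t-test (adjusted p = 0.0768). BNIP3, a mitochondrial receptor that directs mitochondria to autophagy, read 10.87, 11.16 and 11.26 on the circANRIL arrays and 10.15, 10.34 and 9.61 on the vector control arrays. The groups of BNIP3 did not overlap, and the log2 fold change was 1.06 (standard error 0.17, adjusted p = 0.000558). The call of BNIP3 was lost with a floored background (adjusted p = 0.0618 by limma) and by the methods' t-test (adjusted p = 0.112). BNIP3L, its close relative, was detected on all arrays but did not pass, at 0.50 on the log2 scale (adjusted p = 0.088). Lying above 1, the values of NDRG1, BNIP3 and SLC2A1 belong to the 4.33% of all genes whose log2 fold change exceeded 1.

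**Figure D3:**
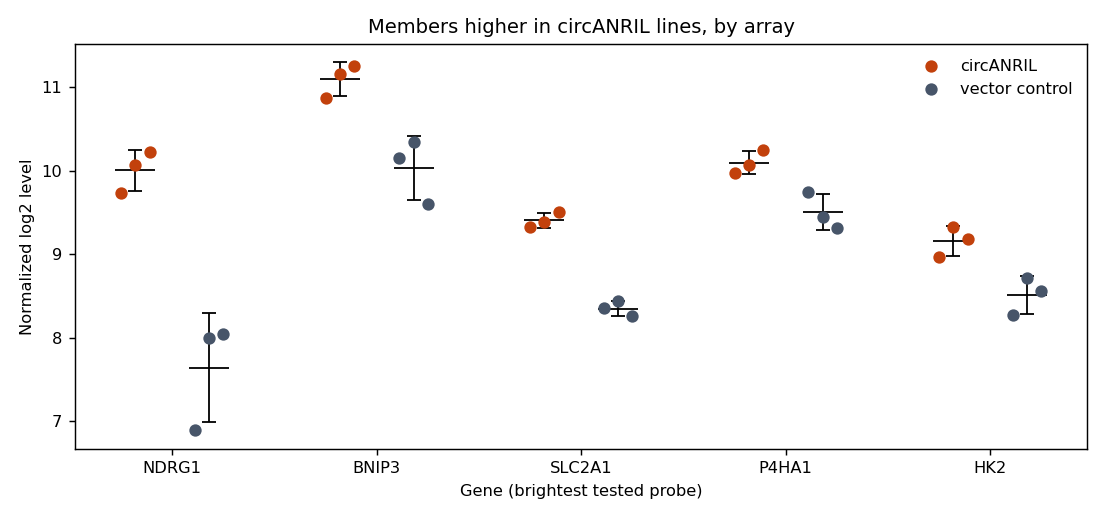
Normalized log2 levels of the 5 genes that were higher in circANRIL lines are plotted for each of the 3 circANRIL arrays and each of the 3 vector control arrays, with bars at the group means. In all 5 genes the circANRIL points lie above the vector control points, and the gap is widest in NDRG1 (9.74 to 10.22 against 6.89 to 8.04).

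Collagen prolyl 4-hydroxylase hydroxylates collagen so that its triple helix is stable, and it consists of an alpha subunit encoded by P4HA1 or P4HA2 and a beta subunit. P4HA1 read 9.97, 10.07 and 10.24 on the circANRIL arrays and 9.75, 9.45 and 9.32 on the vector control arrays. The groups did not overlap, with a difference of 0.59 on the log2 scale (standard error 0.15, adjusted p = 0.0144 by limma), whereas a dim second probe gave −0.11 (adjusted p = 0.683). The call of P4HA1 was lost without circANRIL replicate 2 (0.60, adjusted p = 0.0556), circANRIL replicate 3 (0.52, adjusted p = 0.0728) or vector control replicate 3 (0.50, adjusted p = 0.0529). P4HA2, at 8.06, 8.61 and 8.56 on the circANRIL arrays and 8.14, 7.56 and 7.84 on the vector control arrays, lay just outside the threshold. Its circANRIL replicate 1 fell among the vector control arrays, and its log2 fold change was 0.56 (adjusted p = 0.064). Without that array it was 0.74 (adjusted p = 0.0336), and without vector control replicate 1 it was 0.70 (adjusted p = 0.0328).

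The remaining 8 hypoxia-inducible genes, among them feedback regulators of the factor and secreted targets, did not pass the test. EGLN1, the main prolyl hydroxylase of HIF alpha subunits, read 7.50, 7.66 and 7.62 on the circANRIL arrays and 6.98, 7.01 and 7.26 on the vector control arrays. Its groups did not overlap, and the difference of 0.51 on the log2 scale (standard error 0.18, adjusted p = 0.065 by limma) lay just outside the threshold. EGLN3, the prolyl hydroxylase with the strongest hypoxic induction in many cells, was at 0.28 (adjusted p = 0.385). VEGFA, the angiogenic growth factor and best-known target, was at 0.23 (adjusted p = 0.529). The tested probes of EGLN3 and VEGFA were dim, at 4.930 to 5.771 and 4.975 to 5.954 over the arrays, which limits what they could show. Adrenomedullin, a vasodilator peptide encoded by ADM, was at 0.32 with groups that did not overlap (adjusted p = 0.166). ANKRD37, an ankyrin-repeat gene, was at 0.58 (adjusted p = 0.0914), with 0.76 (adjusted p = 0.0375) when vector control replicate 1 was left out and 0.35 (adjusted p = 0.314) when vector control replicate 3 was. The histone demethylase KDM3A, the repressor BHLHE40 and the oxidase ERO1A, which supplies disulphide bonds in the endoplasmic reticulum, were at 0.08, 0.13 and 0.09. With median scaling these 3 genes had log2 fold changes below 0, and the median over all genes was then −0.14.

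HIF1A and EPAS1 encode the oxygen-regulated alpha subunits, whose amounts are set mainly by protein stability, which these arrays do not measure. HIF1A read 9.04, 9.15 and 9.57 on the circANRIL arrays and 9.15, 8.72 and 8.60 on the vector control arrays. The groups overlapped at vector control replicate 1, and the log2 fold change was 0.43 (standard error 0.19, adjusted p = 0.117 by limma). It was 0.60 (adjusted p = 0.0408) without vector control replicate 1 and 0.28 (adjusted p = 0.405) without circANRIL replicate 3. The other tested probes of HIF1A gave 0.34 and 0.10. EPAS1, which encodes HIF-2 alpha, read 7.02, 7.48 and 7.06 on the circANRIL arrays and 6.90, 7.74 and 7.54 on the vector control arrays. The groups overlapped, with a difference of −0.21 on the log2 scale (standard error 0.23, adjusted p = 0.58).

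**Figure D4:**
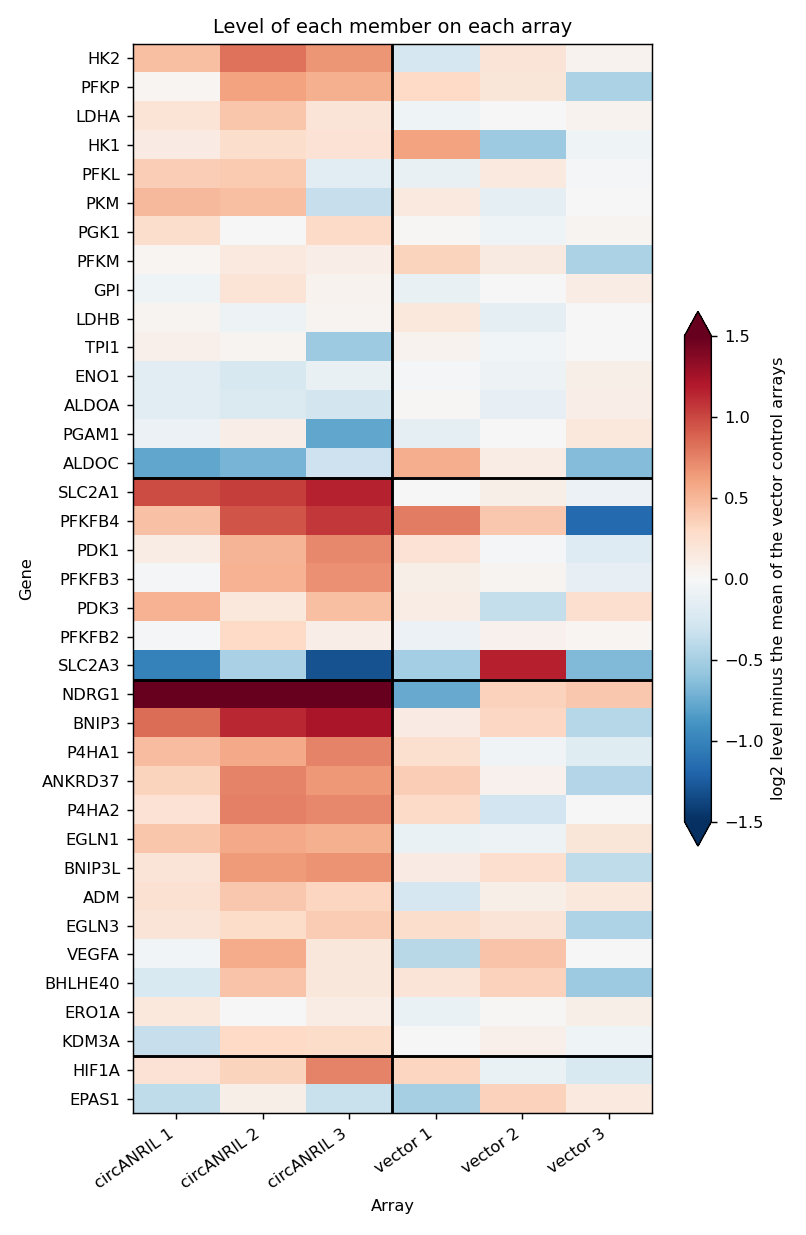
Rows are the 37 genes by class and columns the 3 circANRIL and the 3 vector control arrays, and colour gives the log2 level minus the mean of the vector control arrays. Among the transport, flux and other hypoxia-inducible genes circANRIL replicate 1 is the lowest of its group at 17 of 20 genes, and vector control replicate 3 is the lowest of its group at 12.

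Arrays of the same group also differed at these genes. Among the 20 transport, flux and other hypoxia-inducible genes circANRIL replicate 1 was the lowest of the 3 circANRIL arrays at 17 genes (85.0%), where it was the lowest at 32.8% of all measured genes. Vector control replicate 3 was the lowest of its group at 12 of these 20 genes (60.0%), against 36.0% of all genes. In the 40 other hypoxia-induced genes tested as further context, circANRIL replicate 1 was lowest of its group at 57.5% and vector control replicate 3 at 60.0%. Among the enzymes circANRIL replicate 1 was lowest at 6 of 15 and vector control replicate 3 at 3 of 15. The median over the 20 genes, relative to the mean of the vector control arrays, was 0.21, 0.54 and 0.60 on circANRIL replicates 1 to 3 and 0.10, 0.08 and −0.10 on vector control replicates 1 to 3. With both circANRIL replicate 1 and vector control replicate 3 left out, an alternative chosen after seeing the data, NDRG1, SLC2A1, BNIP3, HK2 and P4HA2 were higher, P4HA1 was not (0.56, adjusted p = 0.0598 by limma) and ALDOC was lower (−0.83, adjusted p = 0.0333). The part of these 2 arrays in the differences between the groups was not tested further.

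More than 1 probe was tested for 14 of the 37 genes. Of these 14 genes 10 had log2 fold changes of 1 sign on all their probes and 4 had both signs, namely HK1, P4HA1, PFKFB3 and PKM. HK2 alone had more than 1 probe past the threshold. In PGK1 the brighter probe gave 0.18 and the dimmer 0.32, and in PDK3 they gave 0.37 and 0.75 (adjusted p = 0.0656 for the dimmer by limma). PGAM1 gave −0.26 and −0.53.

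**Figure D5:**
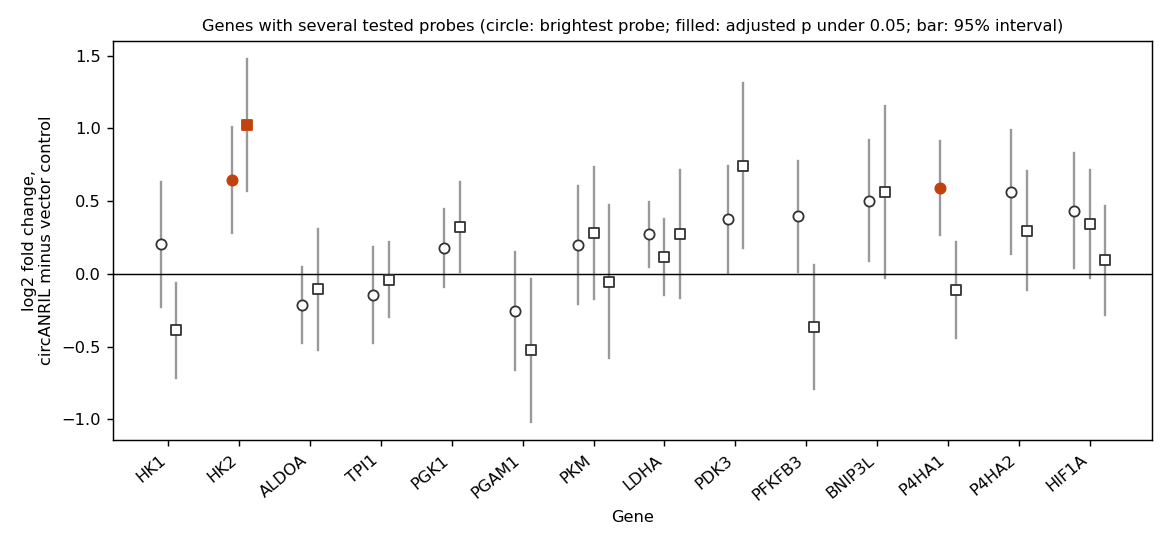
Log2 fold changes, circANRIL minus vector control, are plotted with 95% intervals for every tested probe of the 14 genes with more than 1, circles marking the brightest probe and filled symbols an adjusted p under 0.05. Both probes of HK2 are filled and lie above 0 (0.65 and 1.02), whereas P4HA1 has 1 filled probe at 0.59 and 1 open probe at −0.11.

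Further genes of the same pathways, taken from lists, moved in both directions. Each count is set against the 11.4% of all measured genes that were higher and the 9.26% that were lower. Of 20 other tested glycolysis genes 5 were higher, SLC2A10 counted among them, and 1 was lower, with a median log2 fold change of −0.06. The transporter gene SLC2A10 was detected on all circANRIL arrays and on no vector control array, so it entered the test only through the group in which it was high. It was at least 11.3-fold higher, given as a description. Enolase ENO2, the neuronal form, rose by 1.59 (adjusted p = 7.81e-05 by limma), the mitochondrial pyruvate carrier subunit MPC2 by 1.08 (adjusted p = 0.000134) and phosphoglucomutase PGM1 by 0.91 (adjusted p = 0.000388). PGM2, which acts mainly on pentose phosphates, fell by 0.70 (adjusted p = 0.0135). Of 40 other hypoxia-induced genes 9 were higher (22.5%) and 1 was lower, with a median of 0.14. The secreted glycoprotein STC1 rose by 3.55 (adjusted p = 1.13e-05) although only 2 of the 3 vector control arrays detected it. STC2 rose by 1.48 (adjusted p = 1.44e-05), the ephrin EFNA1 by 1.15 (adjusted p = 0.000439) and the mTORC1 inhibitor DDIT4 by 1.40 (adjusted p = 0.00236). STC2 and DDIT4 are also induced by stress of the endoplasmic reticulum. The heme oxygenase HMOX1 was lower, at −0.87 (adjusted p = 0.00356). Of these 40 genes 28 had a positive and 12 a negative log2 fold change.

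Of 15 tested genes of the machinery that controls the HIF alpha subunits 2 were higher (13.3%, near the 11.4% of all genes) and 4 were lower (26.7%, against 9.26%), with a median log2 fold change of −0.27. The alternative partner subunit ARNT2 rose by 1.09 (adjusted p = 0.00649 by limma). The transmembrane prolyl hydroxylase P4HTM rose by 2.17 (standard error 0.62, adjusted p = 0.0232) and was not detected on 1 of the 3 vector control arrays. The coactivator CREBBP was lower at −0.76 (adjusted p = 0.00529), and the asparaginyl hydroxylase HIF1AN at −0.59 (adjusted p = 0.0464). ELOB and RBX1, subunits of the VHL ubiquitin ligase, were lower at −0.47 (adjusted p = 0.0178) and −0.46 (adjusted p = 0.0195).

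Downstream of pyruvate, none of the 15 tested enzymes of the citric acid cycle passed limma's test, and 1 had an unadjusted p under 0.05, while the methods' t-test also called 0. Of 8 genes of the pyruvate dehydrogenase complex and its regulators, the kinase PDK4 was detected on all circANRIL arrays and on no vector control array. It too entered the test only through the group in which it was high, and it was at least 3.64-fold higher, given as a description. The complex's acetyltransferase DLAT was lower at −0.60 (adjusted p = 0.033 by limma). In the pentose phosphate pathway, which branches off at glucose-6-phosphate to make NADPH and ribose, 3 of 10 genes were higher and 1 was lower, against 11.4% and 9.26% of all genes. The lactonase PGLS rose by 1.06 (adjusted p = 0.000466), the reticular dehydrogenase H6PD, detected on only 2 of the 3 vector control arrays, by 1.02 (adjusted p = 0.0016) and the ribose-phosphate kinase PRPS1 by 0.72 (adjusted p = 0.00246). The transaldolase TALDO1 was lower at −0.57 (adjusted p = 0.0382). Of 14 genes of gluconeogenesis and glycogen, 3 were higher (21.4%, against 11.4% of all genes) and 0 lower by limma. At an unadjusted p under 0.05, 5 were higher and 0 lower, where 35.4% of all genes passed in either direction. The methods' t-test called 0 of the 14 after adjustment. The 3 higher by limma were the phosphorylase kinase subunit PHKA2 at 0.88 (adjusted p = 0.00339), the mitochondrial carboxykinase PCK2 at 1.69 (adjusted p = 0.00756) and glycogenin GYG1 at 0.47 (adjusted p = 0.0423). The 2 dimmer probes of PCK2 gave 0.57 and 0.13 and did not pass. Of 4 tested genes of the glucose-sensing MondoA system 2 were higher (50%, against 11.4% of all genes). The arrestin-like ARRDC4 rose by 1.98 (standard error 0.39, adjusted p = 0.00223 by limma) and the factor MLXIPL by 1.01 (adjusted p = 0.00626). The arrays of ARRDC4 spread widely within each group, and the methods' t-test did not call it (adjusted p = 0.198). TXNIP at 0.71 (adjusted p = 0.0662 by limma) and MLX at −0.35 (adjusted p = 0.264) did not pass.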

How the data were processed

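Total RNA of 6 HEK293 samples was hybridised to Illumina HumanHT-12 v4 BeadChips by the authors, who preprocessed the bead data in GenomeStudio 2011.1. The deposited table gives, for each probe and array, a linear intensity that is background-subtracted but not normalized between arrays, and 11666 to 12397 of 47315 values per array are negative. The deposited detection p-value of each probe was used as given. A second deposited table of normalized intensities, with a median of 96.3 on each array, served as an alternative.

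Background was corrected in limma 3.58.1 (R 4.3.3) by normexp, using the detection p-values and an offset of 16, followed by quantile normalization and log2. Probes detected at 0.05 on 3 or more of the 6 arrays were tested by lmFit and eBayes with an intensity trend, and p-values were adjusted by Benjamini-Hochberg over all 21191 probes. Gene symbols follow the platform annotation, updated through the GRCh38.p14 gene table. The fit was checked on simulated arrays. A fold given as at least a value is a lower bound, for which levels under an array's lowest detected level were raised to it. All analysed members were named. Values on every array were given for those that passed, for HIF1A and EPAS1 and for the 4 brightest enzymes. Of the others that did not pass, they were given for HK1, ALDOC, SLC2A3, PFKFB4, P4HA2 and EGLN1 only. Of each further list, up to 4 genes per direction with the smallest p were named. The members and lists were chosen with earlier results of these data known.

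Same-numbered arrays were not paired, since the correlations of what remained after removing the group means were 0.003, 0.082 and −0.126. Alternatives covered background, scaling, filter, test, replicate block, left-out arrays and the mean over a gene's probes. The t-test that the methods name for comparing groups was run on the same values. For these arrays the methods themselves selected transcripts by a change of more than 2-fold in either direction. No batch, slide or date is labelled.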

Additional observations from a re-analysis of the deposited data

How the results depend on the processing

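With 5 genes of the set higher and 0 lower, 1 enzyme and 4 other genes called and 1965 probes higher and 1789 lower, the counts moved as follows. A floored background gave 830 probes higher and 712 lower, 2 genes of the set higher, 0 enzymes and 2 other genes. Median scaling gave 2974 probes lower, 3 genes of the set higher (NDRG1, SLC2A1, BNIP3) and 3 lower (ALDOA, ALDOC, SLC2A3), 2 enzymes called and an enzyme median of −0.10. The median of all genes was then −0.14, against −0.02, and relative to it the enzymes lay at 0.04 and the other genes at 0.42, and 34.3% of called genes were higher, against 55.1%. The methods' t-test gave 281 probes higher and 203 lower, and 1 gene of the set, SLC2A1, so 0 enzymes and 1 other gene. The replicate block gave 1 gene of the set lower, SLC2A3 (adjusted p = 0.0138 by limma), and changed no other call in the set. Leaving out both circANRIL replicate 1 and vector control replicate 3 gave 1271 probes higher and 1017 lower, 1 gene of the set lower and 2 enzymes called. Leaving out single arrays gave 1072 to 1812 probes higher and 896 to 1432 lower, 3 to 9 genes of the set higher and 0 to 2 lower, 0 to 2 enzymes and 3 to 9 other genes called, and medians of 0.06 to 0.14 for the enzymes and 0.33 to 0.58 for the other genes. The causes were not tested.

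SLC2A1 was called under every alternative run, and NDRG1 under all but the methods' t-test. BNIP3 was lost with a floored background (adjusted p = 0.0618) and the methods' t-test (0.112), both HK2 and P4HA1 also with median scaling, and P4HA1 with the mean over its probes (0.24, adjusted p = 0.29 by limma). EGLN1 passed without an intensity trend (adjusted p = 0.0446) and by the mean over probes (adjusted p = 0.0401).

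The sign turned only in genes that were not called. With median scaling it did in BHLHE40 (−0.059), ERO1A (−0.092), GPI (−0.133), KDM3A (−0.098), LDHB (−0.144), PFKM (−0.099) and PGK1 (−0.025), and with the authors' normalized values in LDHB (−0.002). With both arrays left out it did in LDHB (−0.031) and PFKM (−0.117), and with the mean over probes in HK1 (−0.092). Over single arrays left out, the values that crossed 0 were those of BHLHE40 (−0.143 to 0.302), GPI (−0.003 to 0.131), HK1 (−0.071 to 0.50), KDM3A (−0.035 to 0.290), LDHB (−0.075 to 0.082), PFKM (−0.149 to 0.260), PGAM1 (−0.433 to 0.005) and TPI1 (−0.257 to 0.059). Array number and dim probes limit what could be seen.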
